A study of Mus musculus with 6 samples.

Results

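Collagens and matrix-remodelling enzymes were taken from the mouse genes by symbol. They comprised the collagen chain genes (Col, a number, a and a number), the matrix metalloproteinases (Mmp), their tissue inhibitors (Timp), the Adamts family including the Adamtsl genes, the lysyl oxidases (Lox and Loxl1 to Loxl4) and the lysyl hydroxylases (Plod). The rule found 103 of the 25528 genes in the count tables, 44 of them collagens. It used no measured value itself, but was chosen with earlier results of these data known. A gene was called detected where it reached 1 CPM (reads of the gene per 1000000 counts after TMM scaling of the library) in at least 3 of the 6 libraries, and 32 of the 103 were detected.

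The libraries were made from polyadenylated RNA of organoids of the mouse gastric corpus, the acid-secreting body of the stomach, grown as three-dimensional cultures. In the Erbb2_OE_Corpus group (3 libraries) the organoids overexpressed ErbB2, and in the Ctrl_Corpus group (3 libraries) they had been transduced with an empty vector. Both groups were therefore cultured, transduced organoids, and no untransduced organoid was compared. Of the construct's species, promoter and vector, the mouse strain and age, and the number of lines or clones, the labels give nothing. Nor do they state that replicates were separate cultures or animals. P-values on group alone rest on the spread between libraries of a group. Those from libraries paired by replicate number rest on the spread of the differences within pairs. Either spread may be technical.

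The extracellular matrix under an epithelium is built on the basement membrane, a sheet of laminin and collagen IV networks to which nidogens and heparan sulfate proteoglycans are attached. Collagen chains are hydroxylated on lysine in the endoplasmic reticulum, assembled into triple helices, secreted, and cross-linked outside the cell by copper-dependent lysyl oxidases. Matrix metalloproteinases (MMPs) and ADAMTS proteases cleave matrix proteins, and the TIMPs block them. In the stomach most fibrillar collagen is made by stromal cells, while epithelial cells contribute chains of their own basement membrane.

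Promoter windows are shown for 2 sets of members, Col4a1 with Col4a2, because these genes for the partner chains of collagen IV are transcribed in opposite directions from neighbouring starts, and Loxl4 with Adamtsl4, because these were the 2 members that passed the test when libraries were paired by number. Each window runs from 250 bases before to 50 after the annotated start on the strand of the gene, 5′ to 3′, from RefSeq on GRCm38.p6. In the first pair capitals mark the 78 bases that both windows cover, read on opposite strands, and the annotated starts lay 21 bases apart. In the second pair capitals mark GC boxes, the letters GGGCGG on either strand. The windows are chr8:11312777-11313076 on the minus strand for Col4a1, chr8:11312555-11312854 on the plus strand for Col4a2, chr19:42612757-42613056 on the minus strand for Loxl4 and chr3:95687868-95688167 on the minus strand for Adamtsl4.
Col4a1: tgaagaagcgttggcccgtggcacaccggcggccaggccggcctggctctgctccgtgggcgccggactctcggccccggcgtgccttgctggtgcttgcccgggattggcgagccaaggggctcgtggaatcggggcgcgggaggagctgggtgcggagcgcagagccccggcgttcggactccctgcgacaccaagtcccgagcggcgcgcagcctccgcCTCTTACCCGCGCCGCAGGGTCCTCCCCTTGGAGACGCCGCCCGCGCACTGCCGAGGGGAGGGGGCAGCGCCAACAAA
Col4a2: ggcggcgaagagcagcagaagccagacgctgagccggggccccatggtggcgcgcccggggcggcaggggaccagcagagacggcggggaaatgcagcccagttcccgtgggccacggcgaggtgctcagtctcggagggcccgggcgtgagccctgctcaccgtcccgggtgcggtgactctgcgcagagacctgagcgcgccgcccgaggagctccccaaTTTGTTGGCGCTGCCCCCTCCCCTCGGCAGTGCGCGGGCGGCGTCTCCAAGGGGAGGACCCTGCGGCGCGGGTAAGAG
Loxl4: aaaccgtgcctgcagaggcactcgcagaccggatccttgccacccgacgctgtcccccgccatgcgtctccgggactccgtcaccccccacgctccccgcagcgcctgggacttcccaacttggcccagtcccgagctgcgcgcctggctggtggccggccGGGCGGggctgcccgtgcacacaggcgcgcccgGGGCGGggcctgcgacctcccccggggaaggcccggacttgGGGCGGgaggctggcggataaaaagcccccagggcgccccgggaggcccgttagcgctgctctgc
Adamtsl4: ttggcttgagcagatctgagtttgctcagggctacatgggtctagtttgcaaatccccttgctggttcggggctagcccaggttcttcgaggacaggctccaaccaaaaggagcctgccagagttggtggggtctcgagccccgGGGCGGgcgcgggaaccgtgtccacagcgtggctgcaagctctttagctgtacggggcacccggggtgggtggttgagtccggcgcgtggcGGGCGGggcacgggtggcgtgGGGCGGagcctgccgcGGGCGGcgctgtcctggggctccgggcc

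GC made up 74.0% of the Col4a1 window, 73.7% of the Col4a2 window, 75.0% of the Loxl4 window and 68.0% of the Adamtsl4 window, against a median of 52.7% over all 32851 windows of the same length. The GC box, the letters bound by Sp-family factors, was found 3 times in the Loxl4 window and 4 times in the Adamtsl4 window. Of the 32 detected members 26 had a sequence, in 29 windows, and 23 of these windows (79.3%) held GGGCGG on either strand, against 35.7% of all windows. TATAAA was in 4 of the 29 windows (13.8%), those of Adamts1, Col11a2, Mmp7 and Plod1, and in 13.6% of all windows. CCAAT was in 12 of the 29 (41.4%) and in 37.4% of all. The AP-1 letters TGAGTCA were in 1 of the 29 (3.45%), that of Mmp7, and in 5.2% of all. The 29 windows belong to detected genes only, while the full set was not limited to detected genes. The shares among windows of all detected genes were not determined, so these contrasts cannot be read as traits of this family. Both strands were searched in each case, and these matches describe the letters of these windows and not the binding of a factor.

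As a check of the labels, Erbb2 (ENSMUSG00000062312) had 342, 349 and 285 CPM in Erbb2_OE_Corpus replicates 1, 2 and 3, against 125, 164 and 128 CPM in the Ctrl_Corpus libraries of those numbers. The groups did not overlap. On group alone edgeR's quasi-likelihood test gave a log2 fold change of 1.23 (standard error 0.15, adjusted p = 0.64), and blocking on the replicate number gave 1.23 (standard error 0.09, adjusted p = 3.47e-05). Because the construct's species is not known, its reads may be counted in part, and the fold need not equal the degree of overexpression. Total counts lay between 18735853 and 22767455. Libraries of the same number deviated together from their group means, so a fit with the number as a block was run beside the fit on group alone. With 3 libraries a group this check of pairing is weak. A log2 fold change, standard error or adjusted p printed below without a named fit is from edgeR with the block. On group alone 0 members were called. Of the defining markers, all 9 of gastric and simple epithelium were tested and their summed level was 8480 to 8785 CPM in Erbb2_OE_Corpus and 7090 to 8785 CPM in Ctrl_Corpus libraries. With the block 1 of the 9 was called, Tff2, higher in Erbb2_OE_Corpus (log2 0.91, standard error 0.11, edgeR adjusted p = 0.00166), where 2.37% of all genes were called higher. On group alone Tff2 did not pass (adjusted p = 0.9997). Fibroblast markers summed to 59.7 to 96.4 CPM in Erbb2_OE_Corpus and 54.9 to 94.9 CPM in Ctrl_Corpus libraries, and 5 of 10 (Pdgfrb, Dcn, Lum, Thy1 and Postn) had 0 counts in every library. That sum was nearly all Fbln1, the single one tested, at 59.0 to 96 CPM in Erbb2_OE_Corpus and 54.8 to 94.6 CPM in Ctrl_Corpus. Smooth muscle and pericyte markers summed to 3.05 to 7.41 CPM in Erbb2_OE_Corpus and 0.113 to 8.52 CPM in Ctrl_Corpus, with Des at 0 throughout. Of these 6, 1 was detected, and the 5 not tested reached at most 0.371 CPM in any library. Endothelial markers summed to 2.83 to 15.2 CPM in Erbb2_OE_Corpus and 3.38 to 6.67 CPM in Ctrl_Corpus, with Emcn at 0. Of these 7, 1 was detected, and the 4 not tested reached at most 0.349 CPM in any library. Immune markers summed to 18.6 to 74.0 CPM in Erbb2_OE_Corpus and 20.8 to 54.2 CPM in Ctrl_Corpus, with Adgre1 at 0. Nearly all of that sum was Cd68, at 17.3 to 72.8 CPM in Erbb2_OE_Corpus and 18.3 to 52.9 CPM in Ctrl_Corpus, while the pan-leukocyte marker Ptprc lay at 0.50 to 1.08 CPM in Erbb2_OE_Corpus and 0.731 to 1.97 CPM in Ctrl_Corpus. In these bulk samples fewer cells of a type and less RNA per cell cannot be told apart.

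The 32 detected members made up 31.1% of the 103, while 46.7% of all genes were detected by the same rule. Of the other 71, 28 had 0 counts in every library, which allows up to 0.125 to 0.17 CPM per library at a limit of 3 counts, and 43 had at least 1 count. Collagens were represented by 13 detected genes of 44. The genes for the second chain of type I collagen, Col1a2, and for type III collagen, Col3a1, the main fibrillar collagens of stroma, had 0 and 2 counts over all 6 libraries. Epithelial anchoring collagen Col17a1 had 11 counts in all. Of the 14 MMPs placed in the secreted group only Mmp7 was detected. The detected genes Mmp11 and Mmp28 also encode secreted proteases, but were placed with the membrane-type and furin-activated MMPs. The gelatinase genes Mmp2 and Mmp9 had 2 and 6 counts in all, with 1 count each for the stromelysin genes Mmp3 and Mmp10. Detection was more frequent among membrane-type and furin-activated MMPs (5 of 9), TIMPs (3 of 4, Timp4 having 0 counts) and lysyl hydroxylases (3 of 3). By contrast 4 of 19 ADAMTS proteases, 2 of 5 Adamtsl genes and 1 of 5 lysyl oxidases were detected. Setting the rule at 1 CPM in all 6 libraries kept 25 members, and 0.5 CPM in 3 libraries gave 42.

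**Figure D1:**
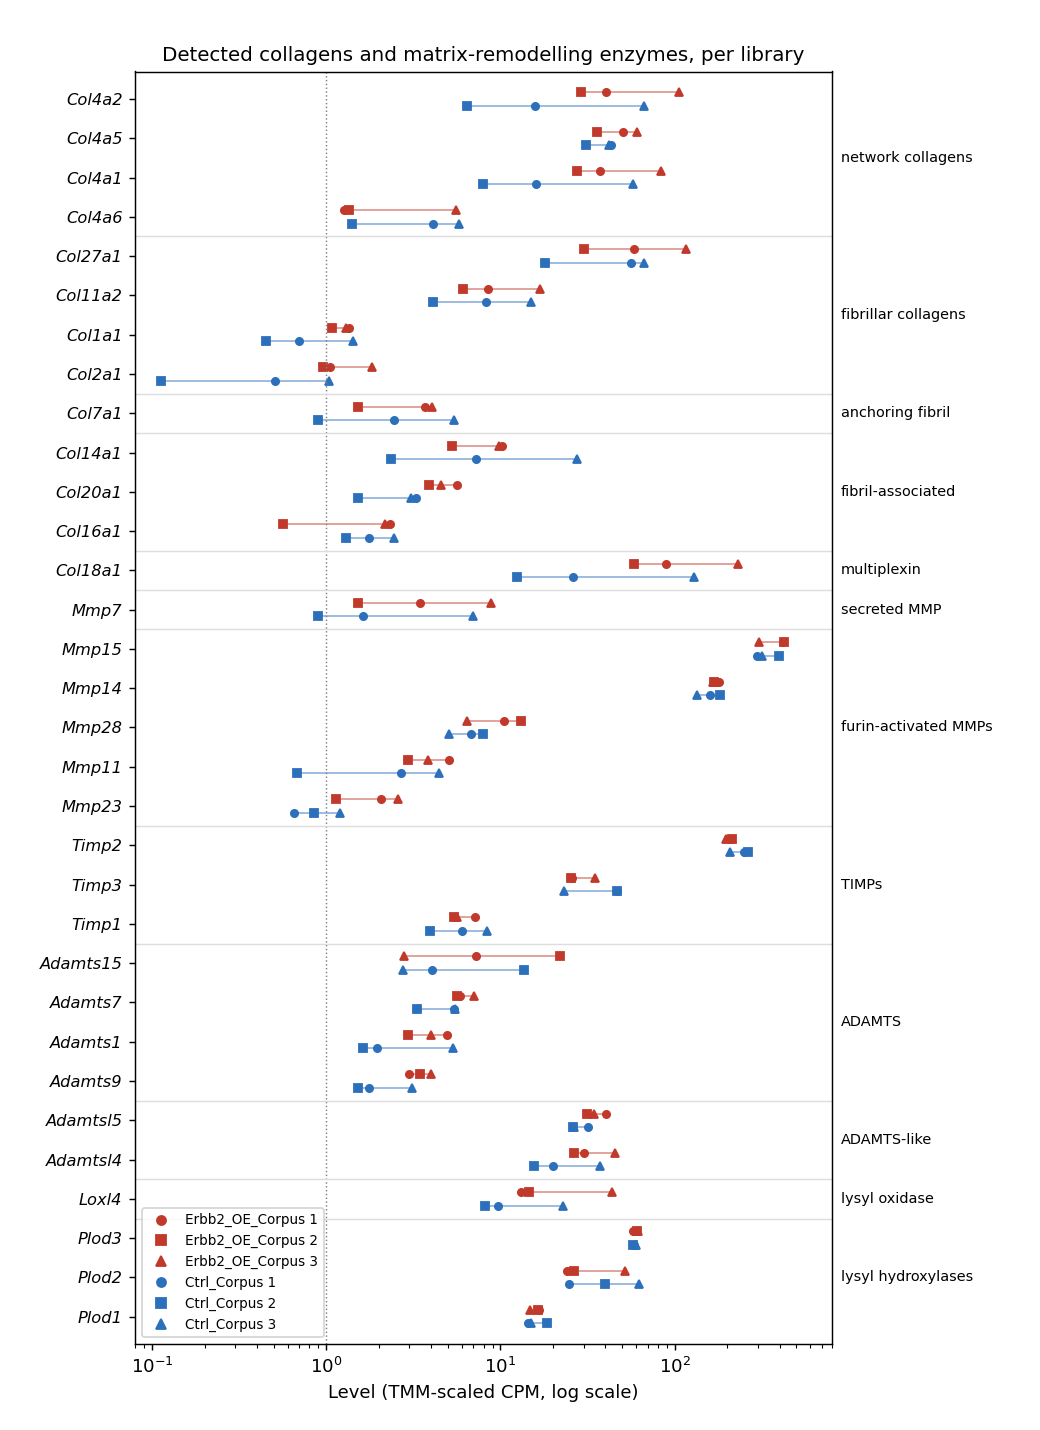
Level of each of the 32 detected members in every library (TMM-scaled CPM, log axis), Erbb2_OE_Corpus in red above Ctrl_Corpus in blue, with 1 symbol per replicate number and a line over the range of each group; the dotted line is 1 CPM. Mmp15, Timp2 and Mmp14 lie above 100 CPM in every library, and most collagens spread widely within each group.

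Divided by the length of the longest annotated transcript, the most abundant members were the membrane-type protease Mmp15, at 74.4 CPM per kilobase in Erbb2_OE_Corpus and 65.6 in Ctrl_Corpus, the inhibitor Timp2, at 55.6 in Erbb2_OE_Corpus and 64.9 in Ctrl_Corpus, and the membrane-type protease Mmp14, at 52.8 in Erbb2_OE_Corpus and 48.9 in Ctrl_Corpus. By their level per kilobase over both groups these stood at the 93.8th, 92.6th and 90.9th percentile of the 12593 genes tested. The basement membrane collagen Col18a1 came next in Erbb2_OE_Corpus, at 22.5 CPM per kilobase, against 9.94 in Ctrl_Corpus, followed by the lysyl hydroxylase Plod3, at 18.3 in Erbb2_OE_Corpus and 17.9 in Ctrl_Corpus. No fibrillar collagen exceeded 8.98 CPM per kilobase in Erbb2_OE_Corpus or 6.17 in Ctrl_Corpus, the values of Col27a1.

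After genes with few counts were removed, 42 of the 103 members remained among 12593 tested genes; the 61 that were not tested reached at most 0.695 CPM in any library. On group alone 0 members were called at an adjusted p under 0.05, where 0% of all tested genes (0 of 12593) were called. At an unadjusted p under 0.05 in edgeR on group alone there were 3 of 42 members and 419 of 12593 genes. Limma voom called 0 genes, and DESeq2 called 34 genes (0.275%) and 0 members. With the replicate block 2 members were called, Loxl4 and Adamtsl4, both higher in Erbb2_OE_Corpus. The background was 3.09% of all genes called, 2.37% higher and 0.723% lower, so that 2 of 42 (4.76%) is near it. At an unadjusted p under 0.05 in edgeR with the block there were 21 of 42 members and 2121 of 12593 genes. DESeq2 with the block called 6 members (Adamtsl4, Col18a1, Col27a1, Col4a1, Col4a2 and Loxl4, all higher), where it called 3.67% of all genes. Of the 42, 30 had a log2 fold change above 0 with the block and 12 below, and their median was 0.35, against 48.4% above 0 and a median of -0.01 over all genes tested. In 21 of the 42 the Erbb2_OE_Corpus library was the higher in all 3 pairs, where 19.6% of all genes were, and in 4 (Col4a6, Mmp17, Plod2 and Timp2) it was the lower in all 3, where 19.2% of all genes were. Groups did not overlap in 4 of the 42 (Adamts7, Col20a1 and Loxl1 higher, Mmp17 lower), which is 9.52% against 8.75% of all genes.

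**Figure D2:**
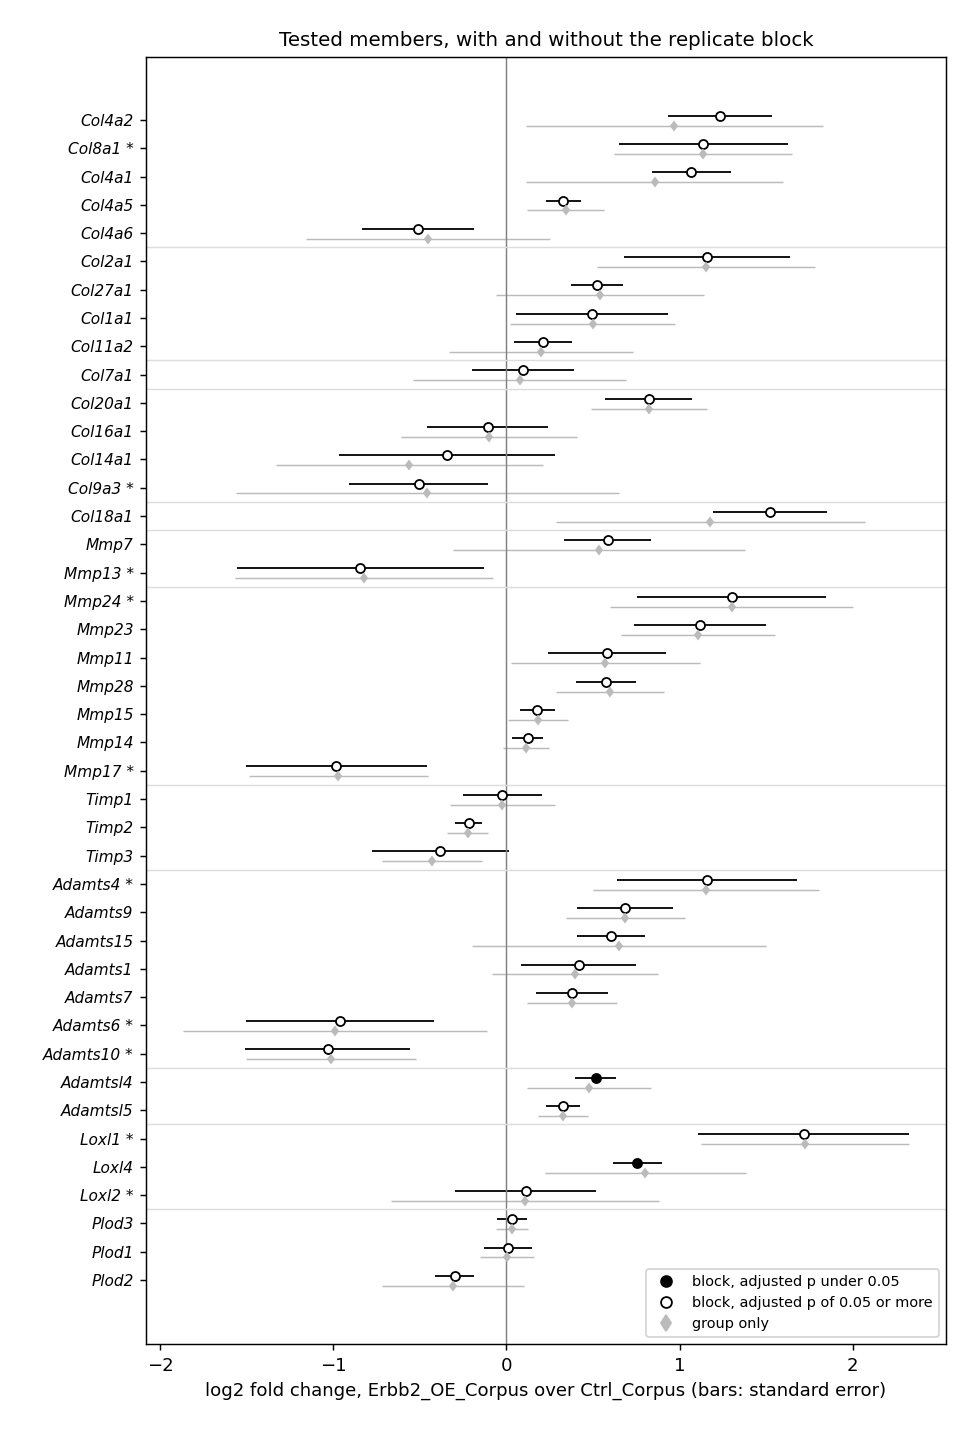
Log2 fold change of Erbb2_OE_Corpus over Ctrl_Corpus for the 42 tested members, with the replicate block (circles) and on group alone (grey diamonds); bars are standard errors, filled circles have an adjusted p under 0.05 with the block, and asterisks mark the 10 members tested but not detected. The 2 filled circles are Adamtsl4 and Loxl4, and the bars on group alone are longer than with the block for most collagens.

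Lysyl oxidases oxidise lysine side chains so that collagen and elastin fibres can be cross-linked, and Loxl4 was the single detected member of the family. Loxl4 (ENSMUSG00000025185) had 13.1, 14.7 and 43.5 CPM in Erbb2_OE_Corpus replicates 1, 2 and 3, against 9.73, 8.17 and 22.9 CPM in the Ctrl_Corpus libraries of those numbers. Each Erbb2_OE_Corpus library was higher than its Ctrl_Corpus partner, by 1.35-fold, 1.80-fold and 1.90-fold, while the groups overlapped, since Ctrl_Corpus replicate 3 stood above Erbb2_OE_Corpus replicates 1 and 2. Its mean was 23.8 ± 17.1 CPM in Erbb2_OE_Corpus and 13.6 ± 8.09 CPM in Ctrl_Corpus (SD, n = 3 each). With the block it rose 1.69-fold (log2 0.76, standard error 0.14, edgeR adjusted p = 0.0125), and on group alone its log2 fold change of 0.80 (standard error 0.58) did not pass (adjusted p = 0.9997). Without the libraries numbered 2 the blocked call was lost (adjusted p = 0.0692). Of the other lysyl oxidases Loxl1 and Loxl2 were tested but not detected. Loxl1 had 0.959, 1.08 and 0.999 CPM in Erbb2_OE_Corpus replicates 1, 2 and 3, against 0.278, 0.0563 and 0.516 CPM in Ctrl_Corpus, so the groups did not overlap, at a log2 fold change of 1.72 with a standard error of 0.61 (block, adjusted p = 0.174). Loxl3 had 46 counts in all and Lox 1.

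The Adamtsl proteins resemble ADAMTS proteases without the catalytic domain, and Adamtsl4 binds fibrillin microfibrils. Adamtsl4 (ENSMUSG00000015850) had 30.1, 26.4 and 45.4 CPM in Erbb2_OE_Corpus replicates 1, 2 and 3, against 20.1, 15.6 and 37.4 CPM in the Ctrl_Corpus libraries of those numbers. The Erbb2_OE_Corpus library was the higher in each pair, by 1.5-fold, 1.69-fold and 1.21-fold, and the groups overlapped. Its mean was 34.0 ± 10.1 CPM in Erbb2_OE_Corpus and 24.4 ± 11.5 CPM in Ctrl_Corpus. With the block it rose 1.43-fold (log2 0.52, standard error 0.12, edgeR adjusted p = 0.0341). On group alone its log2 fold change of 0.48 (standard error 0.36) did not pass (adjusted p = 0.9997), and the blocked call was lost without the libraries numbered 1 (adjusted p = 0.147) or 2 (0.224). Adamtsl5, which also binds microfibrils, had 40.1, 31.4 and 34.2 CPM in Erbb2_OE_Corpus, against 31.6, 26.3 and 26.5 CPM in Ctrl_Corpus. Its groups overlapped by a single library, and its log2 fold change of 0.33 (standard error 0.10) did not pass with the block (adjusted p = 0.113).

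**Figure D3:**
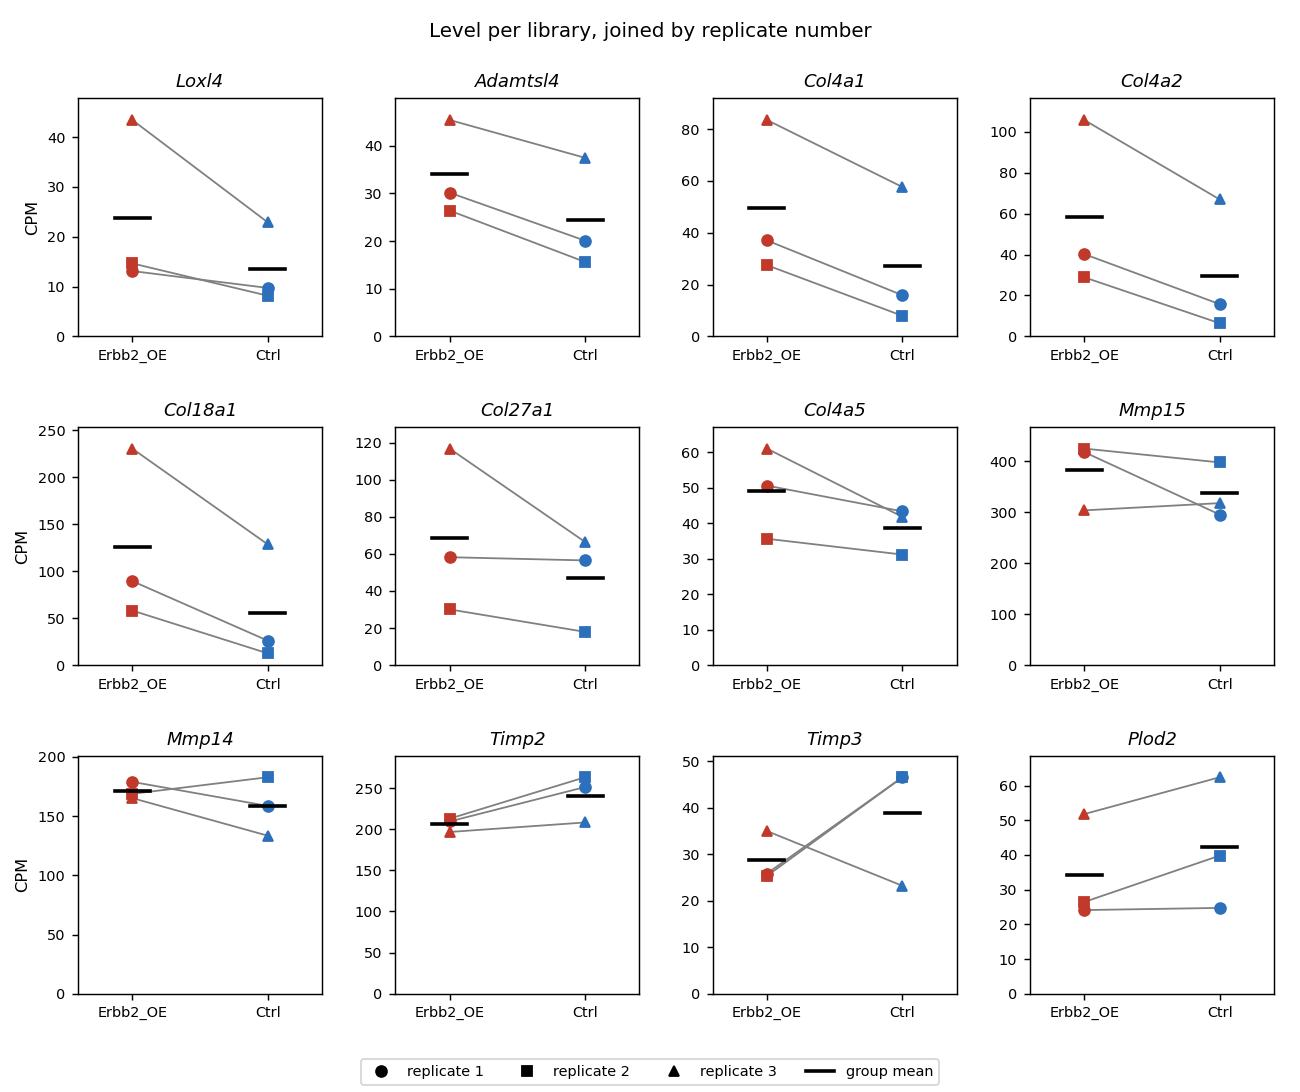
CPM of 12 members in each library, Erbb2_OE_Corpus left and Ctrl_Corpus right, with lines joining libraries of the same replicate number and black bars for group means (each axis starts at 0). For Loxl4, Adamtsl4, Col4a1, Col4a2, Col18a1, Col27a1 and Col4a5 all 3 lines fall towards Ctrl_Corpus, and for Timp2 and Plod2 all 3 climb.

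Among network-forming collagens the partner genes Col4a1 and Col4a2, which encode the chains of the collagen IV of most basement membranes, had similar levels. Col4a1 (ENSMUSG00000031502) had 37.1, 27.5 and 83.6 CPM in Erbb2_OE_Corpus replicates 1, 2 and 3, against 15.9, 7.94 and 57.7 CPM in the Ctrl_Corpus libraries of those numbers. Col4a2 (ENSMUSG00000031503) had 40.2, 28.9 and 106 CPM in Erbb2_OE_Corpus, against 15.8, 6.42 and 66.9 CPM in Ctrl_Corpus. For both genes the libraries numbered 3 were the highest and those numbered 2 the lowest in either group, and the groups overlapped. Within pairs Col4a1 was 2.33-fold, 3.46-fold and 1.45-fold higher in Erbb2_OE_Corpus and Col4a2 2.55-fold, 4.50-fold and 1.58-fold. With the block the log2 fold changes were 1.07 (standard error 0.23, adjusted p = 0.0864) for Col4a1 and 1.24 (standard error 0.30, adjusted p = 0.169) for Col4a2, so neither passed in edgeR, and on group alone they were 0.86 (standard error 0.74) and 0.97 (standard error 0.86). DESeq2 with the block called both (adjusted p = 0.024 and 0.026). Without the libraries numbered 2 edgeR with the block called Col4a1 (log2 0.86, adjusted p = 0.0194) and Col4a2 (log2 0.99, adjusted p = 0.0098), and also without those numbered 3 (log2 1.47, adjusted p = 2.38e-15, and log2 1.68, adjusted p = 6.71e-16). Without the libraries numbered 1 neither passed (log2 1.06, adjusted p = 0.522, for Col4a1 and log2 1.27, adjusted p = 0.645, for Col4a2). Each of these fits holds only 4 libraries, so a gene's own spread within pairs rests on a single difference between pairs. The test draws that spread towards the spread of other genes. The very small adjusted p-values are therefore no measure of replication.

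Per kilobase of transcript Col4a2 stood to Col4a1 at a ratio of 1.11, 1.08 and 1.30 in Erbb2_OE_Corpus replicates 1, 2 and 3, and of 1.02, 0.829 and 1.19 in Ctrl_Corpus. The ratio was the higher in Erbb2_OE_Corpus within each pair, with overlapping groups, and was not tested. Col4a5, a chain of a more restricted collagen IV network, had 50.6, 35.6 and 61.0 CPM in Erbb2_OE_Corpus, against 43.3, 31.2 and 41.8 CPM in Ctrl_Corpus (log2 0.33, standard error 0.10, adjusted p = 0.116 with the block). Per kilobase Col4a1 stood to Col4a5 at 0.724, 0.763 and 1.35 in Erbb2_OE_Corpus and at 0.362, 0.252 and 1.36 in Ctrl_Corpus. The ratio was thus higher in Erbb2_OE_Corpus in the pairs numbered 1 and 2 and nearly equal in pair 3. Col4a6, the neighbour and partner of Col4a5, had 1.26, 1.36 and 5.58 CPM in Erbb2_OE_Corpus, against 4.12, 1.41 and 5.77 CPM in Ctrl_Corpus (log2 -0.51, standard error 0.32, adjusted p = 0.469). Col4a3 and Col4a4, which form the glomerular network with Col4a5, had 5 and 9 counts in all.

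Col18a1, a basement membrane collagen that carries heparan sulfate and contains endostatin, had the highest group mean per kilobase of the collagens in both groups. In single libraries this held except for Ctrl_Corpus replicates 1 and 2, where Col27a1 and Col4a5 stood above it per kilobase. Col18a1 (ENSMUSG00000001435) had 89.5, 58.1 and 231 CPM in Erbb2_OE_Corpus replicates 1, 2 and 3, against 26, 12.4 and 128 CPM in the Ctrl_Corpus libraries of those numbers. It followed Col4a1 and Col4a2 in being highest in the libraries numbered 3 and lowest in those numbered 2, and the groups overlapped. The pairs differed 3.45-fold, 4.67-fold and 1.79-fold, and the means were 126 ± 91.9 CPM in Erbb2_OE_Corpus and 55.6 ± 63.4 CPM in Ctrl_Corpus. With the block the log2 fold change was 1.52 (standard error 0.33, adjusted p = 0.177), and on group alone 1.18 (standard error 0.89). DESeq2 with the block called it (adjusted p = 0.00204), as did edgeR with the block without the libraries numbered 2 (log2 1.30, adjusted p = 0.0389) or 3 (log2 1.98, adjusted p = 3.47e-34). Without those numbered 1 it did not pass (log2 1.45, adjusted p = 0.628). These fits with a pair left out also hold only 4 libraries, and their adjusted p-values are no measure of replication.

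Of the 4 detected fibrillar collagens, Col27a1, Col11a2 and Col2a1 are best known from cartilage, while Col1a1 is a collagen of stroma. Col27a1 was the most abundant, with 58.2, 30.1 and 117 CPM in Erbb2_OE_Corpus, against 56.5, 17.9 and 66.4 CPM in Ctrl_Corpus. The pair numbered 1 hardly differed, and with the block the log2 fold change was 0.52 (standard error 0.15, adjusted p = 0.118); it passed without the libraries numbered 1 (log2 0.78, adjusted p = 0.00354) and in DESeq2 with the block (adjusted p = 0.0182), but not without the libraries numbered 2 (log2 0.45, adjusted p = 0.367) or 3 (log2 0.35, adjusted p = 0.0685). Col11a2, a chain of the cartilage collagen XI, had 8.5, 6.11 and 16.9 CPM in Erbb2_OE_Corpus, against 8.25, 4.11 and 15 CPM in Ctrl_Corpus (log2 0.21, standard error 0.17, adjusted p = 0.587). Col2a1, the main cartilage collagen, had 1.05, 0.963 and 1.83 CPM in Erbb2_OE_Corpus, against 0.510, 0.113 and 1.03 CPM in Ctrl_Corpus (log2 1.16, standard error 0.48, adjusted p = 0.247) and was the 1 member that reached 1 CPM in exactly 3 libraries. Col1a1, the first chain of type I collagen, lay between 1.08 and 1.35 CPM in Erbb2_OE_Corpus and between 0.451 and 1.42 CPM in Ctrl_Corpus, with an adjusted p of 0.636.

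Collagens that attach to fibrils or anchor epithelium were low. Col20a1, a fibril-associated collagen whose function is little known, had 5.63, 3.91 and 4.54 CPM in Erbb2_OE_Corpus, against 3.29, 1.52 and 3.05 CPM in Ctrl_Corpus. It was the 1 tested collagen whose groups did not overlap, and its log2 fold change of 0.82 (standard error 0.25) had an adjusted p of 0.110 with the block. Col14a1, also fibril-associated, had 10.2, 5.27 and 9.82 CPM in Erbb2_OE_Corpus, against 7.28, 2.37 and 27.5 CPM in Ctrl_Corpus. Its highest value was in Ctrl_Corpus replicate 3, and the blocked log2 fold change of -0.34 (standard error 0.63, adjusted p = 0.85) became 0.70 without the libraries numbered 3 (adjusted p = 0.0512). Col16a1, of the same class, lay between 0.566 and 2.31 CPM in Erbb2_OE_Corpus and between 1.30 and 2.45 CPM in Ctrl_Corpus. Col7a1, the anchoring fibril collagen beneath stratified epithelia, had 3.71, 1.53 and 4.04 CPM in Erbb2_OE_Corpus, against 2.46, 0.901 and 5.38 CPM in Ctrl_Corpus (log2 0.10, standard error 0.29, adjusted p = 0.912).

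The collagens as a group varied widely between replicate numbers. Summed over all 44, they held 313, 203 and 651 CPM in Erbb2_OE_Corpus replicates 1, 2 and 3, against 189, 89.5 and 429 CPM in the Ctrl_Corpus libraries of those numbers. The Erbb2_OE_Corpus sum was the higher in each pair, and Ctrl_Corpus replicate 3 exceeded Erbb2_OE_Corpus replicates 1 and 2. Of the 13 detected collagens, 12 were lowest in the libraries numbered 2 in both groups (92.3%, against 23.1% of all genes tested), and 8 were highest in those numbered 3 in both (61.5%, against 25.2%). The collagen IV pair made up 77.3, 56.4 and 189 CPM of these sums in Erbb2_OE_Corpus and 31.7, 14.4 and 125 CPM in Ctrl_Corpus. Of the marker genes, Fbln1 and Cd68 were also highest in the libraries numbered 3 in both groups, at 96 and 72.8 CPM in Erbb2_OE_Corpus replicate 3 and 94.6 and 52.9 CPM in Ctrl_Corpus replicate 3. So were the epithelial markers Krt18, Krt19 and Cldn18, with Cldn18 at 1168 CPM in Erbb2_OE_Corpus replicate 3 and 920 CPM in Ctrl_Corpus replicate 3. The other epithelial markers were not, and Tff2 was highest in the libraries numbered 2 in both groups. Ptprc was lowest in the libraries numbered 3 in both groups, at 0.50 CPM in Erbb2_OE_Corpus replicate 3 and 0.731 CPM in Ctrl_Corpus replicate 3. Each of these is a single gene and does not show the share of a cell type, and the part of other cells in the collagen sums was not tested.

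**Figure D4:**
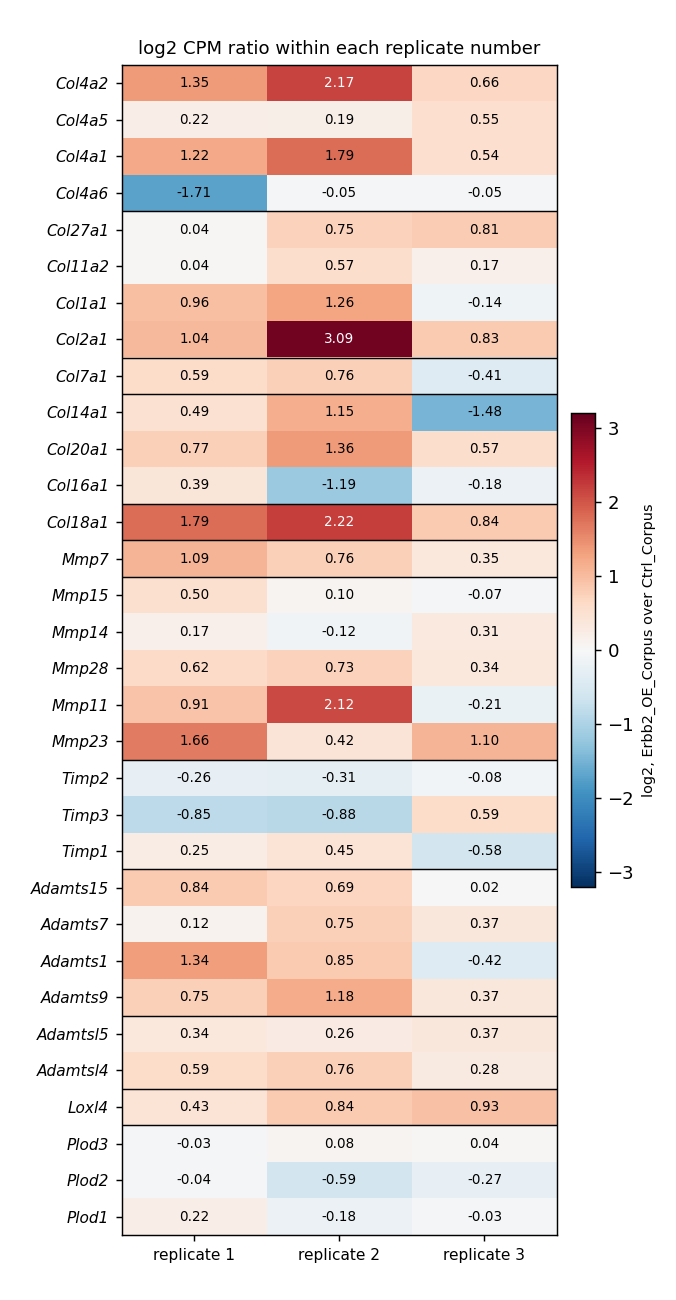
Log2 ratio of the CPM in Erbb2_OE_Corpus over Ctrl_Corpus within each replicate number for the 32 detected members, in red where higher and blue where lower in Erbb2_OE_Corpus; lines part the role groups. Col18a1 and Col4a2 have ratios of 1.79 and 1.35 in replicate 1, 2.22 and 2.17 in replicate 2 and 0.84 and 0.66 in replicate 3. Timp3 and Col14a1 change sign in replicate 3, as do Adamts1, Mmp11, Col7a1, Col1a1, Timp1 and Mmp15.

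Membrane-type MMPs sit at the cell surface and several MMPs are activated inside the cell by furin. Mmp15, a membrane-type MMP, had 418, 425 and 304 CPM in Erbb2_OE_Corpus replicates 1, 2 and 3, against 295, 398 and 318 CPM in the Ctrl_Corpus libraries of those numbers. Mmp14, which cleaves fibrillar collagen and activates the Mmp2 product, had 179, 169 and 165 CPM in Erbb2_OE_Corpus, against 159, 183 and 133 CPM in Ctrl_Corpus. Neither gene passed, with overlapping groups and blocked log2 fold changes of 0.18 (standard error 0.10, adjusted p = 0.424) for Mmp15 and 0.12 (standard error 0.09, adjusted p = 0.545) for Mmp14. Mmp28, a furin-activated protease of epithelia, had 10.5, 13.2 and 6.41 CPM in Erbb2_OE_Corpus, against 6.81, 7.94 and 5.08 CPM in Ctrl_Corpus (log2 0.58, standard error 0.18, adjusted p = 0.110). Mmp23, released from its membrane anchor by furin-type cleavage, had 2.05, 1.13 and 2.58 CPM in Erbb2_OE_Corpus, against 0.649, 0.845 and 1.20 CPM in Ctrl_Corpus (log2 1.12, standard error 0.38, adjusted p = 0.156). Both were higher in Erbb2_OE_Corpus in all 3 pairs. Mmp11, or stromelysin-3, lay between 2.94 and 5.06 CPM in Erbb2_OE_Corpus and between 0.676 and 4.43 CPM in Ctrl_Corpus, and Mmp7, the secreted matrilysin of glandular epithelia, had 3.45, 1.53 and 8.83 CPM in Erbb2_OE_Corpus, against 1.62, 0.901 and 6.93 CPM in Ctrl_Corpus (log2 0.58, standard error 0.25, adjusted p = 0.265).

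TIMPs bind the active site of MMPs, and Timp3 also inhibits ADAMTS proteases. Timp2 had 209, 213 and 197 CPM in Erbb2_OE_Corpus, against 251, 263 and 208 CPM in Ctrl_Corpus. It was the lower in Erbb2_OE_Corpus in each pair, and its groups overlapped only in that Ctrl_Corpus replicate 3 fell among the Erbb2_OE_Corpus values. The means were 206 ± 8.51 CPM in Erbb2_OE_Corpus and 241 ± 28.9 CPM in Ctrl_Corpus, and the log2 fold change of -0.22 (standard error 0.08) did not pass with the block (adjusted p = 0.179). Timp3 had 25.8, 25.3 and 35.0 CPM in Erbb2_OE_Corpus, against 46.5, 46.5 and 23.2 CPM in Ctrl_Corpus. Pairs 1 and 2 were lower in Erbb2_OE_Corpus and pair 3 was higher, at a blocked log2 fold change of -0.38 (standard error 0.39, adjusted p = 0.728). Timp3 lies within Syn3, and in the GRCm38 annotation 21.3% of its exon bases are shared with that gene, so its counts are uncertain where reads were counted without strand. The next largest shares among detected members were 12% for Adamts9 and Mmp28, 11.7% for Plod3, 6.42% for Plod2 and 5.58% for Mmp11. Timp1 was 6.04 ± 0.937 CPM in Erbb2_OE_Corpus and 6.10 ± 2.23 CPM in Ctrl_Corpus. The sum of the TIMPs was 242, 243 and 237 CPM in Erbb2_OE_Corpus and 304, 314 and 240 CPM in Ctrl_Corpus, while that of the MMPs was 620, 615 and 493 CPM in Erbb2_OE_Corpus and 468, 592 and 472 CPM in Ctrl_Corpus.

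The libraries numbered 3 bore on several of these proteases and inhibitors. When both were left out, 13 of 40 tested members (32.5%) were called with the block, against 8.71% of all genes tested in that fit. Higher in Erbb2_OE_Corpus (6.15% of all genes) were Adamts1, Adamts15, Adamtsl4, Col18a1, Col20a1, Col4a1, Col4a2, Loxl4, Mmp11, Mmp15 and Mmp28, and lower (2.56% of all genes) were Timp2 (log2 -0.28, adjusted p = 0.0272) and Timp3 (log2 -0.86, adjusted p = 3.45e-09). Without the libraries numbered 1 the called members were Col27a1 and Loxl4 (1.69% of all genes called), and without those numbered 2 they were Col18a1, Col4a1 and Col4a2 (1.15%). With only 4 libraries in each of these fits, a gene's own spread within pairs rests on a single difference between pairs, and the test borrows from other genes.

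Of the ADAMTS proteases, some of which cleave proteoglycans of the aggrecan and versican family, 4 were detected and 0 of the 7 tested were called. Adamts15 had 7.20, 21.9 and 2.79 CPM in Erbb2_OE_Corpus, against 4.03, 13.6 and 2.75 CPM in Ctrl_Corpus. Its libraries numbered 2 were the highest and those numbered 3 the lowest in both groups, and the log2 fold change was 0.60 (standard error 0.20, adjusted p = 0.137) with the block. Adamts9 had 2.97, 3.45 and 4.0 CPM in Erbb2_OE_Corpus, against 1.76, 1.52 and 3.10 CPM in Ctrl_Corpus (log2 0.69, standard error 0.28, adjusted p = 0.238). Adamts7, which cleaves cartilage oligomeric matrix protein, had 5.89, 5.61 and 7.08 CPM in Erbb2_OE_Corpus, against 5.42, 3.32 and 5.46 CPM in Ctrl_Corpus. Its groups did not overlap, at a log2 fold change of 0.38 (standard error 0.21, adjusted p = 0.402). Adamts1 lay between 2.94 and 4.93 CPM in Erbb2_OE_Corpus and between 1.63 and 5.33 CPM in Ctrl_Corpus.

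Lysyl hydroxylases prepare collagen lysines for cross-links and sugars, and all 3 genes were detected with 0 called. Plod3, which also transfers the sugars, had 57.5, 60.5 and 61.9 CPM in Erbb2_OE_Corpus, against 58.5, 57.3 and 60.1 CPM in Ctrl_Corpus. The groups overlapped, and the log2 fold change was 0.03 (standard error 0.08, adjusted p = 0.895). Plod2, which acts on the collagen telopeptides, had 24.1, 26.4 and 51.8 CPM in Erbb2_OE_Corpus, against 24.7, 39.8 and 62.4 CPM in Ctrl_Corpus. It was the lower in Erbb2_OE_Corpus in all 3 pairs, at a log2 fold change of -0.30 (standard error 0.11, adjusted p = 0.201). Plod1 was 15.9 ± 1.03 CPM in Erbb2_OE_Corpus and 16 ± 2.22 CPM in Ctrl_Corpus.

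Genes of the same pathway outside the family were read from 4 lists, which were also chosen with earlier results of these data known. Of 24 genes for collagen folding, secretion and processing 18 were tested and 0 were called in either direction, with a median blocked log2 fold change of 0.02. Over all genes tested 2.37% were called higher and 0.723% lower with the block, and the median was -0.01. The smallest p-values there belonged to P4ha2, a prolyl hydroxylase subunit, at 0.38 (standard error 0.12, adjusted p = 0.118), and to the prolyl isomerase Ppib, at -0.23 (standard error 0.07, adjusted p = 0.125). Of 13 collagen receptors 8 were tested, 1 was called higher and 0 lower with the block, and the median was 0.25. The called receptor was Itga1, an integrin subunit that binds collagen IV, with 47.5, 46.8 and 46.5 CPM in Erbb2_OE_Corpus and 33.4, 27.3 and 27.5 CPM in Ctrl_Corpus. Its groups did not overlap, and it rose by 0.68 on the log2 scale (standard error 0.10, adjusted p = 0.00400); on group alone the adjusted p was 0.808 in edgeR, while DESeq2 called it. The syndecan Sdc1 was at 0.27 (standard error 0.07, adjusted p = 0.0768).

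Of 30 other matrix proteases and their inhibitors 21 were tested, 3 were called higher and 0 lower with the block, and the median was 0.25, against 2.37% higher, 0.723% lower and a median of -0.01 over all genes tested. Hpn, the membrane serine protease hepsin, had 53.6, 48.3 and 40.9 CPM in Erbb2_OE_Corpus and 23.3, 21 and 28.2 CPM in Ctrl_Corpus, groups that did not overlap. It rose by 0.97 on the log2 scale (standard error 0.13, adjusted p = 0.00389), and did not pass on group alone (adjusted p = 0.68). The serpin Serpinb5 rose by 0.46 with the block (standard error 0.10, adjusted p = 0.0220), to 46.4 ± 9.21 CPM in Erbb2_OE_Corpus, against 33.9 ± 8.28 CPM in Ctrl_Corpus. Furin, the proprotein convertase that activates membrane-type MMPs, rose by 0.34 with the block (standard error 0.08, adjusted p = 0.0388), to 135 ± 19.5 CPM in Erbb2_OE_Corpus, against 106 ± 18.7 CPM in Ctrl_Corpus. Of 27 substrates of these enzymes and matrix glycoproteins 14 were tested, 2 were called higher and 0 lower with the block, and the median was 0.58, beside the same all-gene values of 2.37%, 0.723% and -0.01. Nid2, a nidogen that links laminin to collagen IV, had 8.37, 7.64 and 43.8 CPM in Erbb2_OE_Corpus and 4.91, 5.24 and 16.8 CPM in Ctrl_Corpus, and rose by 1.03 with the block (standard error 0.18, adjusted p = 0.00970). The basement membrane proteoglycan gene Agrn rose by 0.33 with the block (standard error 0.08, adjusted p = 0.0388), to 509 ± 71.5 CPM in Erbb2_OE_Corpus, against 409 ± 82.7 CPM in Ctrl_Corpus. On group alone edgeR called 0 genes of these lists and DESeq2 called Itga1 and Hpn. The blocked calls of Agrn, Furin and Serpinb5 were lost without the libraries numbered 1 (adjusted p = 0.0886, 0.0663 and 0.0837, in that order of genes) or 2 (0.389, 0.355 and 0.189), and that of Nid2 without those numbered 3 (0.0556), whereas Itga1 and Hpn passed without any 1 pair.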

How the data were processed

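The 6 tables hold raw read counts per Ensembl gene, whole numbers of matched reads, per the file headers, as deposited by the authors. Alignment with STAR, counting with featureCounts and the build GRCm39 appear in the submitters' processing notes. The sources used here do not give tool versions, annotation or strandedness. Reads of a gene and of an antisense or overlapping gene therefore cannot be told apart. Symbols matched 25424 of 25528 IDs. Transcript lengths and exon overlaps came from an annotation of an earlier assembly, GRCm38, and promoter windows from RefSeq on GRCm38.p6. Sample titles gave the groups and the replicate numbers. All tables were distinct, and replicates differed by chi-square values of 34.9 to 132 per degree of freedom. The limit of 3 counts covers counting error only.

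Counts were fitted with edgeR 4.0.16 in R 4.3.3: filterByExpr with a minimum count of 10, TMM scaling, a robust two-sided quasi-likelihood F test on group alone over all 6 libraries, and Benjamini-Hochberg adjustment over 12593 genes at 0.05. Standard errors were derived from F, as the log2 fold change over its square root. The pairing check correlated deviations from the group means across genes: r was 0.393, 0.725 and 0.750 for replicates 1, 2 and 3, each library correlating best with its own number, and the labels give only the numbers. The fit with the number as a block is therefore given beside the calls on group alone, and statistics without a named fit come from it. The fits were also run on simulated counts with the same spread for every gene, unlike these libraries. That run checks the code and does not give the error rates in these data.

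The members and gene lists were chosen with earlier results of these data known. All detected members are named. Full statistics were given for members called in either fit, and in each role group for the 2 detected members with the smallest blocked p and the 2 with the highest level; of each list, for called genes and the 2 with the smallest blocked p. Alternatives were DESeq2 1.42.0, voom in limma 3.58.1, RLE or upper-quartile scaling, no filter on low counts, 1 CPM in 3 libraries, the earlier quasi-likelihood form, mitochondrial genes and Erbb2 removed, and each library or pair left out. In DESeq2 on group alone 250 genes had no adjusted p and stayed without one.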

Additional observations from a re-analysis of the deposited data

How the results depend on the processing

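On group alone every scaling, filter and edgeR form tried, and limma voom, called 0 members and 0 genes, and DESeq2 called 0 members, 34 genes, 1 collagen receptor and 1 other protease gene. With the replicate block edgeR called 2 members and 389 genes, 2 and 395 with RLE scaling, 2 and 381 with upper-quartile scaling, 2 and 388 with at least 1 CPM in 3 libraries and 2 and 405 with the earlier quasi-likelihood form. Limma voom with the block called 2 and 417, and DESeq2 with the block called 6 and 462. The lists of receptors, other proteases and inhibitors, and substrates had 1, 3 and 2 calls in each of these blocked fits, except DESeq2 with 2, 5 and 4. The upper-quartile and earlier-form fits with the block were chosen after seeing the data. The log2 fold change of Erbb2 was 1.23 in DESeq2, with the block and with the block and upper-quartile scaling or the earlier form, and 1.24 with the block and RLE scaling, the 1 CPM filter, limma voom or DESeq2. The setting with mitochondrial genes and Erbb2 removed gives no Erbb2 value.

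Leaving out 1 library on group alone gave 0 members, 0 to 1 genes, 0 calls in each list and a log2 fold change of 1.16 to 1.37 for Erbb2. Leaving out 1 pair with the block gave 2 to 13 members, 146 to 1089 genes (213 without pair 1), 0 to 2 folding genes, 1 to 5 receptors, 1 to 8 other proteases and inhibitors, 2 to 6 substrates and 1.12 to 1.32 for Erbb2 (1.28 without pair 3). Some uncalled log2 fold changes turned in sign: Col14a1 was at 0.072 in DESeq2 with the block, and Timp1 at 0.0086 in limma voom, 0.034 in DESeq2 with the block and 0.019 in the earlier form with the block. With 1 library left out on group alone they ran from -0.090 to 0.89 for Col27a1, -0.38 to 0.26 for Col16a1, -0.072 to 0.12 for Plod1, -0.35 to 1.88 for Mmp7, -0.42 to 1.62 for Adamts15, -0.75 to 0.090 for Plod2, -0.32 to 0.88 for Col7a1, -1.04 to 0.80 for Col14a1, -0.33 to 0.77 for Col11a2, -0.25 to 0.28 for Timp1 and -0.18 to 1.99 for Nid2. With 1 pair left out and the block they ran from -0.45 to 0.098 for Col16a1, -0.10 to 0.11 for Plod1, -0.13 to 0.65 for Col7a1, -0.64 to 0.70 for Col14a1 and -0.16 to 0.34 for Timp1. The cause was not tested. At these depths members under 1 CPM rest on few counts, and 3 libraries a group limit every test.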
